A study of Mus musculus with 4 samples.

Results

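Yap1 and 8 other genes around the Hippo pathway were followed through an RNA immunoprecipitation of YTHDF1 in Hepa 1-6 cells. They were taken by Ensembl ID, 9 of the 53465 IDs in the count table: the coactivators Yap1 (ENSMUSG00000053110) and Wwtr1 (ENSMUSG00000027803), their partner Tead1 (ENSMUSG00000055320), the kinases Lats1 (ENSMUSG00000040021) and Lats2 (ENSMUSG00000021959), the scaffold Amotl2 (ENSMUSG00000032531), and the targets Ccn1 (ENSMUSG00000028195), Ccn2 (ENSMUSG00000019997) and Ankrd1 (ENSMUSG00000024803). All 9 were among the 12927 IDs that were compared, those with a mean of at least 1 CPM, the count of a gene scaled to a common library total. Hepa 1-6 is a mouse hepatocellular carcinoma line, and YTHDF1 is a cytoplasmic protein that binds N6-methyladenosine, a methyl mark on mRNA. RNA was sequenced from 4 groups of 1 library each: the YTHDF1 precipitate (RIP) and the input of cells with a guide for Usp5, and the RIP and the input of cells with a control guide. Usp5 is a ubiquitin-specific protease. The labels call the first genotype a knockdown and the second WT, and whether a line was a clone or a pool is not given in the sources used here. Each input was drawn from the same lysate as its RIP, and a precipitate with a control antibody was not used here.

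The Hippo pathway is a kinase cascade that restrains growth, and in the mouse liver its loss is known to cause overgrowth and tumours. LATS1 and LATS2 phosphorylate the coactivators YAP (Yap1) and TAZ (Wwtr1), which keeps them in the cytoplasm, and AMOTL2, an angiomotin, binds YAP and holds it outside the nucleus. In the nucleus YAP and TAZ bind TEAD factors, which read a short DNA motif, and switch on targets such as Ccn1, Ccn2 and Ankrd1. Lats2 and Amotl2 are both restraints on the coactivators and known targets of them. YAP1 mRNA has been reported as bound by YTHDF1.

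The TEAD motif is shown first because it is read by the TEAD factors, with which YAP and TAZ switch on their targets. RefSeq's promoter windows (GRCm38.p6, 250 bases before to 50 bases after a gene's start) were at hand for 7 of the 9 genes, all but Tead1 and Ccn2. The letters GGAATG, or CATTCC when read on the other strand, were found in 6 of these 7: Yap1, Wwtr1, Lats2, Amotl2, Ccn1 and Ankrd1. Of all 27025 genes with such windows, 16.6% held the motif. The CCAAT box (CCAAT or ATTGG) was found in 1 of the 7, Ankrd1, and in 41.1% of all genes. The 9 genes were picked as pathway members, several of them because they are known targets, so the motif count is a description. A match is not evidence of binding, and no binding was measured. Each stretch below runs 5′ to 3′ along the gene's strand, with the motif in capitals.
Yap1, chr9:8004705-8004764, minus strand: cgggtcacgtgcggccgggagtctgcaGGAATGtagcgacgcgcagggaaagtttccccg
Wwtr1, chr3:57576014-57576073, minus strand: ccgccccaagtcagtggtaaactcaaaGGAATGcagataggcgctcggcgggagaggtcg
Lats2, chr14:57746087-57746146, minus strand: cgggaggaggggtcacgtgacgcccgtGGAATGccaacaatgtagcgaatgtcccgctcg
Amotl2, chr9:102717712-102717771, plus strand: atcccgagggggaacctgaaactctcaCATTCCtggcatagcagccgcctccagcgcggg
Ccn1, chr3:145650056-145650115, minus strand: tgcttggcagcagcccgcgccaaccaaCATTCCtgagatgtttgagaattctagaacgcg
Ankrd1, chr19:36120022-36120081, minus strand: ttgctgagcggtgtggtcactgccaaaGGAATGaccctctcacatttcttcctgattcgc
Ankrd1, chr19:36119935-36119994, minus strand: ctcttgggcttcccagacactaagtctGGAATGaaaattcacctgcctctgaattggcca
In Wwtr1, Ccn1 and Ankrd1 the start of the window with the motif is also the outer end of the gene in RefSeq's gene table, and the motif began 136, 103, and 210 and 123 bases before it. The other windows were drawn around another listed start. In Yap1 the motif began 141 bases before that start (8004596) and 99 before the gene's outer end. In Amotl2 it began 65 bases before that start (102717804), and the motif's first base lies 648 bases inside the gene's span. In Lats2 it began at base 5 after that start (57746123), 93 bases inside the gene's span.

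The libraries held between 29898171 and 33941019 counts, and the 9 genes together took 0.131% of the Usp5-guide RIP, 0.121% of its input, 0.127% of the control RIP and 0.101% of its input. Values are CPM after TMM scaling. Between the inputs, and between the RIP libraries, genes scattered far more than counting error. In the classes of abundance that hold the 9 genes (mean log2 CPM 5.75 to 7.71), the median squared deviation was 67.6 to 102 times the binomial variance for the inputs and 25 to 45.4 times for the RIP libraries. These factors include any change with the guide. For each ratio of a gene a 95% counting interval was therefore computed beside a wider one, in which the counts were first divided by these factors. The text prints one or both for some of the ratios. Ratios of reads between paralogs have counting intervals only. The reference table paired no Ensembl ID with a name, and the 9 are named by the rule that chose them. Usp5 itself, which would check the knockdown label, Ythdf1, hepatocyte markers and other pathway genes were not analysed here.

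**Figure D1:**
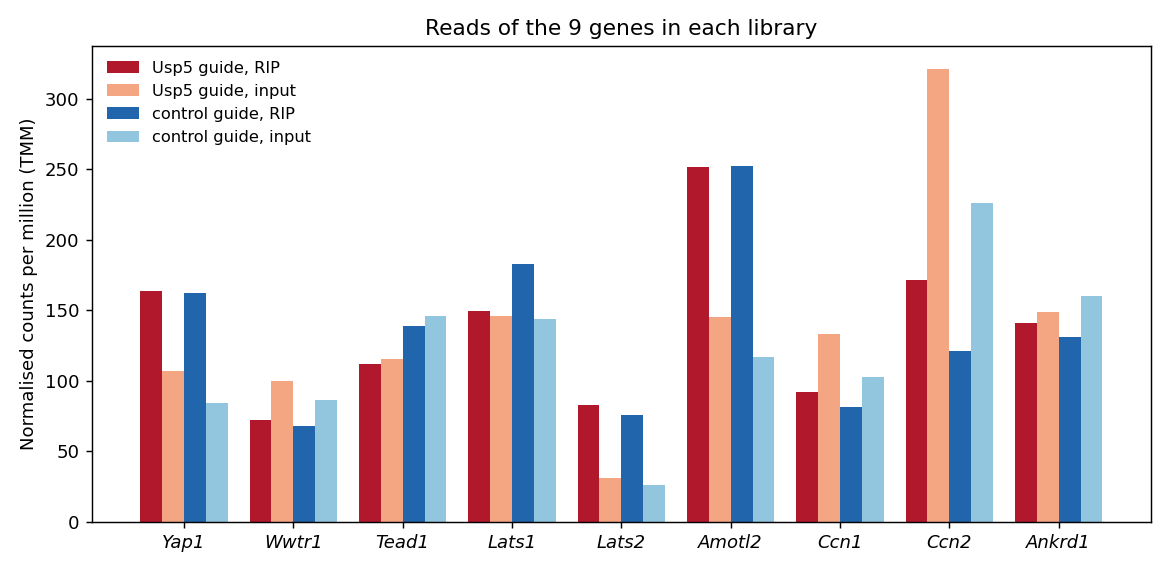
Reads of the 9 genes in each of the 4 libraries, in CPM after TMM scaling, with 1 bar per library and no error bar because each group held 1 library. Bars may be compared within a gene but not between genes, since they are not corrected for length. For Lats2 the bars are 83.1 and 30.9 CPM in RIP and input with the Usp5 guide and 75.4 and 26.3 CPM with the control guide, and Ccn2 shows the opposite order of RIP and input.

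The first question was which of these mRNAs the YTHDF1 antibody recovered above or below their share of the input. Lats2, Amotl2 and Yap1 were higher in the RIP than in the input of both lines, and Ccn2 was lower. In a paired fit of all libraries, edgeR's quasi-likelihood test gave a 2.78-fold higher level for Lats2 (log2 1.48, adjusted p = 0.00152), 1.94-fold for Amotl2 (log2 0.95, adjusted p = 0.00211) and 1.72-fold for Yap1 (log2 0.78, adjusted p = 0.0098). Ccn2 fell by 0.90 on the log2 scale, to 0.534 of its input level (adjusted p = 0.00187). Wwtr1, Tead1, Lats1, Ccn1 and Ankrd1 did not pass the adjusted p of 0.05. In all, 3 of 9 genes rose and 1 fell, beside 10.1% and 11.3% of all genes compared, and the median of the 9 was -0.06 beside 0.07 for all genes. The fit had terms for fraction and line and left 1 residual degree of freedom for the 4 libraries, so it leans on the spread shared by all genes. Its p-values measure the spread between 2 lysates of 1 cell line. These lysates carried different guides, so any effect of the Usp5 guide on enrichment counts as error.

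Within each line, a gene was counted when RIP and input differed 2-fold or more and the counting interval left out 0 on the log2 scale. No p-value is given there, since each group held 1 library. With the Usp5 guide 1 of the 9 genes, Lats2, was counted as higher, beside 15.8% of all genes, and 0 as lower, beside 13.8%. With the control guide Lats2 and Amotl2 were counted as higher, 2 of 9 beside 18.2% of all genes, and 0 as lower, beside 15.2%. These shares of 9 genes are near those of the whole table. All 9 ratios lay inside the middle 95% of genes in their own class of abundance in both lines, while Lats2 lay above that of all 5244 genes at a mean log2 CPM of 5 or more (upper limit 1.31 with the Usp5 guide and 1.46 with the control guide).

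Among the restraints on the coactivators, Lats2, the kinase paralog that is itself a target of YAP, had the highest ratio of the 9. It was read at 83.1 CPM in the RIP and 30.9 CPM in the input with the Usp5 guide, 2.69-fold higher in the RIP (log2 1.43, counting interval 1.32 to 1.54, widened interval 0.62 to 2.35). With the control guide it was read at 75.4 CPM in the RIP and 26.3 CPM in the input, 2.87-fold higher in the RIP (log2 1.52, counting interval 1.41 to 1.64, widened interval 0.63 to 2.56). Both RIP libraries thus lay above both inputs. It was also the gene with the fewest reads in the inputs, 950 with the Usp5 guide and 749 with the control guide.

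Amotl2, the angiomotin that tethers YAP, had 7981 reads in the RIP and 4469 in the input with the Usp5 guide, or 251.9 and 145 CPM. With the control guide it had 9008 reads in the RIP and 3324 in the input, or 252.5 and 117 CPM. Its level in the 2 RIP libraries was nearly equal, and both lay above both inputs. The RIP was 1.73-fold higher with the Usp5 guide (log2 0.79, widened interval 0.31 to 1.31) and 2.17-fold higher with the control guide (log2 1.12, widened interval 0.58 to 1.70).

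Lats1, the other LATS kinase, had 149 CPM in the RIP and 146 CPM in the input with the Usp5 guide, a log2 ratio of 0.03. With the control guide it had 183 CPM in the RIP and 144 CPM in the input, a log2 ratio of 0.34. The control RIP was the one library that stood above the other three, and the widened intervals of both ratios held 0 (-0.49 to 0.57 and -0.17 to 0.89). Over both lines its log2 ratio was 0.19 (edgeR adjusted p = 0.468).

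Yap1, the coactivator reported as a target of YTHDF1, had 5193 reads in the RIP and 3292 in the input with the Usp5 guide, or 164 and 107 CPM. With the control guide it had 5785 reads in the RIP and 2394 in the input, or 162 and 83.9 CPM. Both RIP libraries lay above both inputs, which differed more from each other than the RIP libraries did. The RIP was 1.53-fold higher with the Usp5 guide (log2 0.61, counting interval 0.55 to 0.68, widened interval 0.04 to 1.22). It was 1.93-fold higher with the control guide (log2 0.95, counting interval 0.88 to 1.02, widened interval 0.31 to 1.65). Yap1 lies on chromosome 9, 7931999 to 8004638 in GRCm38.p6, and RefSeq lists 0 genes that overlap it.

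Its paralog Wwtr1, which encodes TAZ, went the other way in values, without passing the test. It had 72.1 CPM in the RIP and 99.4 CPM in the input with the Usp5 guide, and 67.6 CPM in the RIP and 86.1 CPM in the input with the control guide. Both RIP libraries lay below both inputs, with log2 ratios of -0.46 (widened interval -1.06 to 0.15) and -0.35 (-0.98 to 0.31). Over both lines the log2 ratio was -0.41 (edgeR adjusted p = 0.161). Tead1, the DNA-binding partner of YAP and TAZ, was close to no difference, with log2 ratios of -0.05 with the Usp5 guide and -0.07 with the control guide. Over both lines its log2 ratio was -0.06 (edgeR adjusted p = 0.842), and 0.10 when libraries were scaled by their totals alone.

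**Figure D2:**
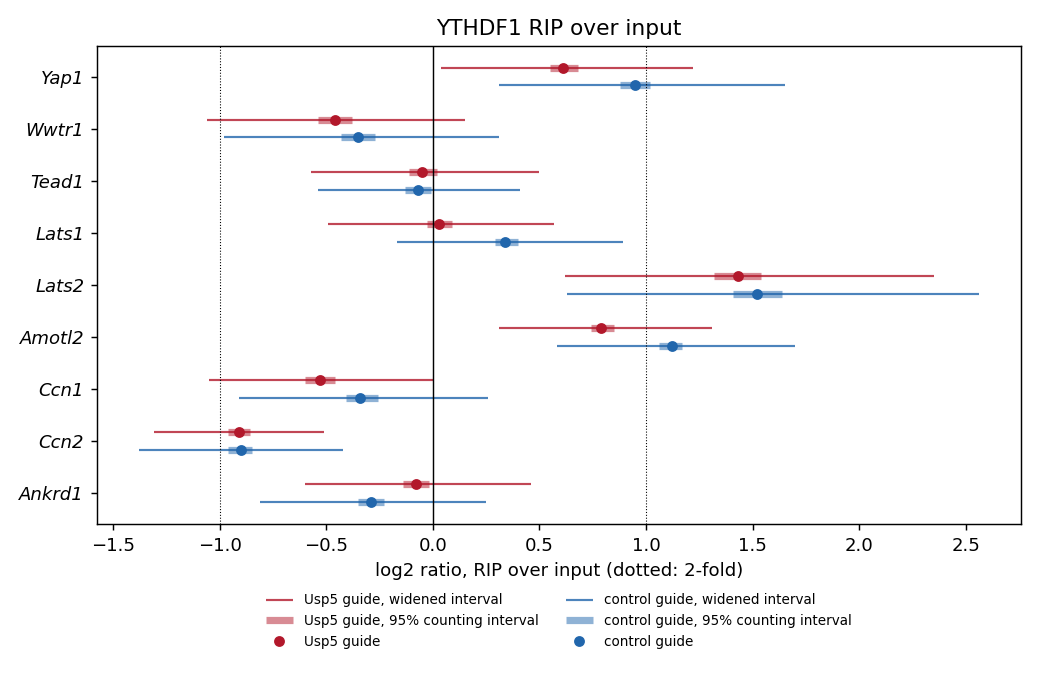
Log2 ratio of RIP over input for each gene with the Usp5 guide (red, upper) and the control guide (blue, lower). Thick bars are 95% counting intervals, thin lines are intervals widened by the scatter between libraries, and dotted lines mark 2-fold. The thin lines of Lats2, Amotl2 and Yap1 lie above 0 in both lines, and those of Ccn2 lie below 0.

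Of the 3 targets, Ccn2, a secreted matricellular protein also known as CTGF, was the one that passed the test. It had 5426 reads in the RIP and 9887 in the input with the Usp5 guide, or 171 and 321 CPM. With the control guide it had 4311 reads in the RIP and 6442 in the input, or 121 and 226 CPM. Both RIP libraries lay below both inputs, and the ratios of the lines were almost equal, at 0.533 (log2 -0.91, widened interval -1.31 to -0.51) and 0.535 (log2 -0.90, widened interval -1.38 to -0.42).

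Ccn1, a related matricellular protein also known as CYR61, had 92.2 CPM in the RIP and 133 CPM in the input with the Usp5 guide, and 81.4 CPM in the RIP and 103 CPM in the input with the control guide. Its log2 ratios were -0.53 and -0.34, and over both lines -0.43, with an unadjusted p of 0.0341 and an adjusted p of 0.113 by edgeR. Ankrd1, an ankyrin-repeat protein widely used as a readout of YAP, had log2 ratios of -0.08 with the Usp5 guide and -0.29 with the control guide (edgeR adjusted p = 0.477 over both lines). Both Ccn1 and Ankrd1 were read less in the RIP than in the input of each line, though with library totals Ankrd1 stood at 0.05 with the Usp5 guide, and neither passed the adjusted threshold.

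**Figure D3:**
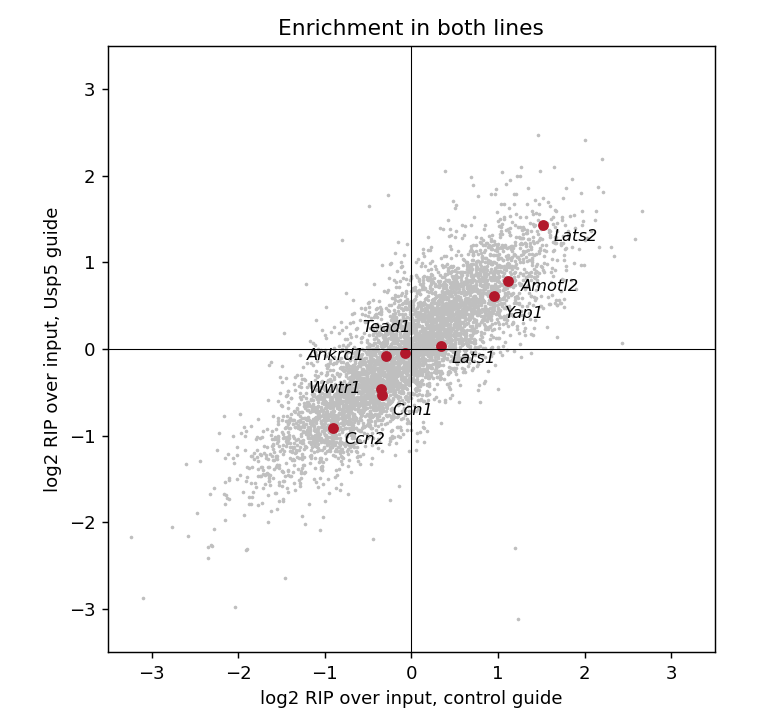
Log2 ratio of RIP over input with the Usp5 guide (vertical) and the control guide (horizontal) for the 5244 genes with a mean log2 CPM of at least 5 (grey, 12 of them outside the axes) and for the 9 genes (red). The lines share no library. Lats2 lies at 1.43 with the Usp5 guide and 1.52 with the control guide, above the middle 95% of these abundant genes (upper limits 1.31 and 1.46), and Ccn2 lies at -0.91 and -0.90.

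Ratios of reads between paralogs in the same library do not depend on how libraries are scaled. They are not ratios of level, because the genes differ in length. For each read of Wwtr1 there were 2.27 reads of Yap1 in the Usp5-guide RIP and 1.08 in its input, and 2.40 in the control RIP and 0.975 in its input. The share of Yap1 was thus 2.11 times higher in the RIP with the Usp5 guide (counting interval 1.97 to 2.26) and 2.46 times higher with the control guide (2.29 to 2.65). For each read of Lats1 there were 0.557 reads of Lats2 in the Usp5-guide RIP and 0.211 in its input, and 0.413 in the control RIP and 0.182 in its input. This was 2.64 times higher in the RIP with the Usp5 guide (2.42 to 2.87) and 2.26 times with the control guide (2.07 to 2.48). For Ccn2 per read of Ccn1 the RIP stood at 0.770 of the input with the Usp5 guide (0.726 to 0.815) and 0.676 with the control guide (0.634 to 0.721). In each of the 3 pairs the ratio of RIP to input lay on the same side of 1 in both lines. These intervals leave out the scatter between libraries, and unequal recovery within a pair was not tested.

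Genes whose profile over the 4 libraries was most like that of Yap1 were sought among 2572 genes within 1 log2 unit of its mean level, by the Euclidean distance between log2 CPM profiles centred on their own mean. The 3 nearest, at distances of 0.0568 to 0.0613, have no name in the sources used here. Amotl2 was the nearest of the members compared, at rank 46 with a distance of 0.174, and Lats1 followed at rank 882 with 0.676. Ccn2 was the farthest, at rank 2265 with 1.73, and Lats2 lay outside this range of level. With 4 libraries such ranks are a description.

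To see whether recovery with YTHDF1 differed with the Usp5 guide, the enrichment in those cells was divided by that in control cells. None of the 9 genes reached a 2-fold change (0 of 9, beside 27.2% of all genes). Among genes at a mean log2 CPM of 5 or more, as all 9 are, the middle 95% ran from -0.85 to 0.91 (log2). This range is short of 2-fold, so few genes of such a level were counted. The change was below 0 for 7 genes and above 0 for Tead1 and Ankrd1 (under other scalings Tead1, at 0.03, and Ccn2, at -0.01, changed sign), with a median of -0.11 on the log2 scale beside 0.00 for all genes. Yap1 had the lowest value, -0.34 (counting interval -0.43 to -0.24), so that its enrichment with the Usp5 guide was 0.792 of that with the control guide. Amotl2 stood at -0.32 (-0.40 to -0.24) and Lats1 at -0.31 (-0.40 to -0.23). The widened intervals of all 9 genes held 0, for Yap1 from -1.18 to 0.51, and all 9 lay inside the middle 95% of genes of like abundance. For Yap1 and Amotl2 the RIP libraries were nearly level while the inputs differed, as their values above show. For Lats1 it was the RIP libraries that differed.

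The level of these mRNAs with the Usp5 guide was compared between the inputs. No gene reached 2-fold (0 of 9, beside 24.6% of all genes). For genes at a mean log2 CPM of 5 or more, as all 9 are, the middle 95% ran from -0.83 to 0.81 (log2). That is short of 2-fold, so few genes of such a level were counted. Of the 9 genes, 7 had a ratio above 1, with a median log2 ratio of 0.23 beside -0.01 for all genes. Each line gave 1 lysate, so no p-value can be given and nothing checks these differences against replicates. The largest was that of Ccn2, with 321 CPM in the Usp5-guide input and 226 CPM in the control input, 1.42-fold higher (log2 0.51, counting interval 0.46 to 0.56, widened interval 0.04 to 0.99). The middle 95% of genes of like abundance ran from -0.60 to 0.51, so Ccn2 lay at its upper end. Ccn1 was 1.30-fold (log2 0.37), Yap1 1.28-fold (log2 0.35) and Amotl2 1.25-fold (log2 0.32) as high as in the control input, and their widened intervals held 0. Lats2 stood at 0.23, Wwtr1 at 0.21 and Lats1 at 0.02 on the log2 scale. Tead1 had 115 CPM with the Usp5 guide and 146 CPM with the control guide (log2 -0.34, widened interval -0.95 to 0.27), and Ankrd1 had 149 and 160 CPM (log2 -0.11). Among the targets, Ccn1 and Ccn2 thus lay above the control input and Ankrd1 slightly below it.

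Between the RIP libraries, where the level is not divided by input, again no gene reached 2-fold (0 of 9, beside 9.17% of all genes). For genes at a mean log2 CPM of 5 or more, the middle 95% ran from -0.49 to 0.45, also short of 2-fold. The median log2 ratio of the 9 was 0.09 beside -0.01 for all genes. Ccn2 had 171 CPM with the Usp5 guide and 121 CPM with the control guide, 1.42-fold higher (log2 0.50, counting interval 0.44 to 0.56, widened interval 0.10 to 0.91). It was the only one of the 9 outside the middle 95% of genes of like abundance, which ran from -0.39 to 0.40 and leaves 5% of all genes outside by construction. Its ratio was thus nearly the same in RIP libraries and inputs. Its widened intervals lay above 0 in both, but the factors behind them came from these same libraries, so this is a description. Tead1 had 111.5 CPM with the Usp5 guide and 139 CPM with the control guide (log2 -0.31, widened interval -0.69 to 0.06), close to its value between the inputs. Lats1 stood at -0.29 (-0.67 to 0.08), Ccn1 at 0.18, Lats2 at 0.14, Ankrd1 at 0.10, Wwtr1 at 0.09 and Yap1 at 0.02 on the log2 scale, and Amotl2 at 0.997-fold. Both libraries of a line come from 1 lysate, so the like values of Ccn2 and of Tead1 in both fractions are not replicates of the guide.

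**Figure D4:**
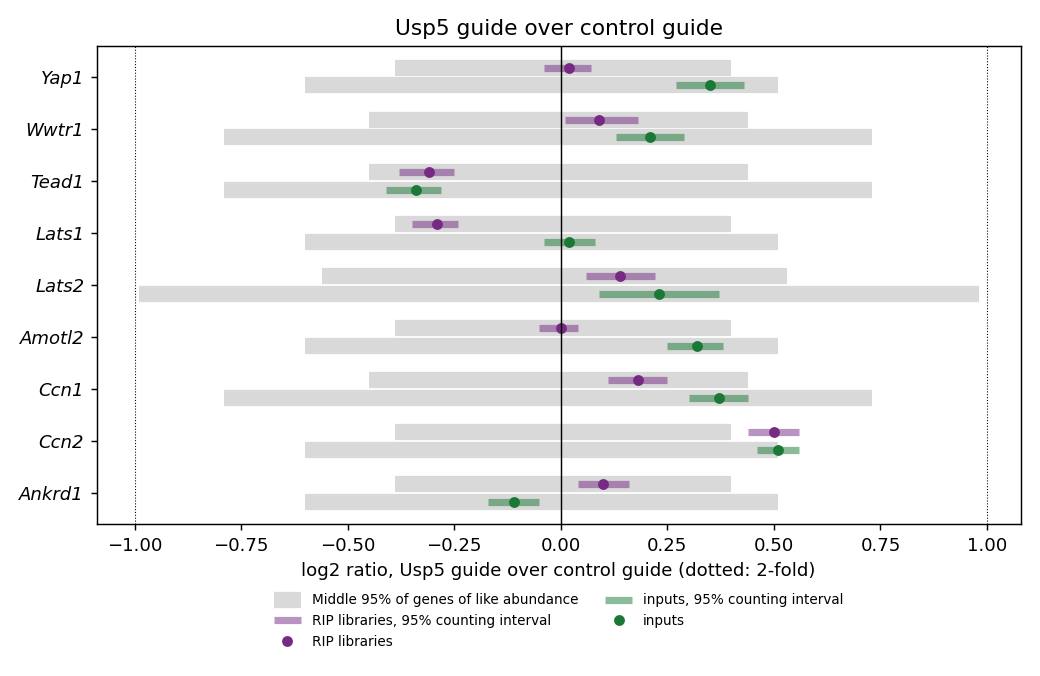
Log2 ratio of the Usp5 guide over the control guide for each gene between the RIP libraries (purple, upper) and the inputs (green, lower). Coloured bars are 95% counting intervals, grey bars span the middle 95% of all genes in the same class of abundance, and dotted lines mark 2-fold. Ccn2 lies at 0.50 and 0.51, outside the grey bar of the RIP libraries and at the end of that of the inputs, while the other 8 genes lie inside their grey bars.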

How the data were processed

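The authors deposited raw read counts per Ensembl gene ID for 4 libraries in 1 table (0 columns left over). The tools behind these counts were HISAT2 2.1.0 and featureCounts 1.6.3, with build mm10, per the submitters' processing notes. Annotation release, strand setting and treatment of multiple matches and duplicates: not given in the sources used here. Without strand, reads from genes overlapping Wwtr1, Lats1, Lats2 and Ccn2 cannot be told apart from theirs. The labels' protocols describe no molecular identifiers, so duplicate reads may be among the counts. The counting intervals cover counting error only, since each group held 1 library. The 9 genes, the lists and the tests were chosen with earlier results of these data known.

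Counts were TMM-scaled (edgeR 4.0.16, R 4.3.3). To each count 0.5 was added, scaled by library size, before log2 ratios were formed, with Clopper-Pearson intervals on the split of reads. For the change in enrichment the variance was the sum of 1 over each count. For widened intervals the counts were divided by the scatter between the libraries of the same fraction, by whole-number class of mean log2 CPM. RIP against input was tested with edgeR's quasi-likelihood test on fraction and line, with Benjamini-Hochberg adjustment over 12927 genes. The pairing of RIP and input comes from the protocol, which draws both from 1 lysate. Across the 5244 genes at a mean log2 CPM of 5 or more, the guide's log2 ratios in RIP libraries and inputs correlated at r = 0.177, and across all 12927 at r = 0.062 (genes are not independent). All 9 genes were to be described. The code was tested on simulated data.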

Additional observations from a re-analysis of the deposited data

Results flagged for a closer look

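For 3 genes the ratio of the Usp5 guide over the control guide had opposite signs in RIP libraries and inputs. The difference was not tested, since each group held 1 library. Lats1 stood at -0.29 between the RIP libraries and 0.02 between the inputs (counting interval -0.04 to 0.08), a difference of -0.31 on the log2 scale. Amotl2 stood at 0.997-fold (log2 counting interval -0.05 to 0.04) and 1.25-fold, a difference of -0.32. Under DESeq2 size factors, library totals and upper-quartile factors, however, its RIP libraries stood at 0.01 to 0.02 on the log2 scale. That is the same sign as its inputs (0.31 to 0.38). For Lats1 between inputs and Amotl2 between RIP libraries the counting interval held 0, so counting error alone leaves the sign unsettled there. Ankrd1 stood at 0.10 and -0.11, a difference of 0.21. The widened intervals of all 3 differences held 0.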

How the results depend on the processing

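DESeq2 size factors, library totals, upper-quartile factors, a filter of 10 reads in all, DESeq2's Wald test and a fit with no replicate block each called the same number of the 9 genes, 4, in RIP against input over both lines. Their adjusted p-values, those of the fit in the report included, ran from 1.14e-05 to 0.00693 for Lats2, 5.16e-06 to 0.0106 for Amotl2, 0.0023 to 0.0259 for Yap1 and 7.74e-07 to 0.0393 for Ccn2. Requiring 2-fold as well left 1, Lats2. Leaving out a line leaves the ratio of the other, given in the report, with no test. With library totals Tead1 changed sign, to 0.10 (adjusted p = 0.727), and Yap1 passed 2-fold with the control guide (log2 1.13), for 3 genes there. Of 234 recomputed log2 ratios of the 9 genes 10 changed sign (4 of Tead1, 1 of Ankrd1, 2 of Ccn2 and 3 of Amotl2), all of them within 0.11 of 0 in either setting. Library totals moved the median of all genes by 0.13 with the Usp5 guide and 0.18 with the control guide. They raised the higher share of calls to 63.5%, against 47.4%, over both lines and to 65.9%, against 54.5%, with the control guide. Over both lines they called 7.47% of all genes lower, and the filter of 10 reads called 5.14% higher and 6.19% lower. That filter counted 22.6% between the RIP libraries. Widened intervals left the counts of the 9 genes as they were, but counted 10.8% and 13.7% of all genes for RIP over input (Usp5 and control guide, beside 29.6% and 33.4%), 7.84% for the change in enrichment, 1.53% between inputs and 1.49% between RIP libraries. These genes had at least 749 reads in every library, and their widened intervals were broader than their counting intervals. The scatter behind the widening includes any change with the guide, and each group held 1 library. What limited these comparisons was not tested.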
